A study of Homo sapiens with 12 samples.

Results

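The expression of 10 heat shock genes was followed in the table of gene counts: HSPA1A, HSPA1B, HSPH1, DNAJB1, HSPB1, HSP90AA1, HSPD1, HSPE1, HSF1 and BAG3. They were taken by symbol and made up 10 of the 28278 rows. The study passaged cancer cells through repeated pulses of hydroxychloroquine (HCQ), a weak base that collects in lysosomes and blocks autophagy, and asked what had changed stably in the cells that survived. Libraries labelled OVCAR3 (an ovarian cancer line) or CCL218 (a colorectal cancer line) came from cells grown in plates. Cells called HCQ-evolved went through 15 pulses of 20 to 50 µM HCQ, each of 48 h, and were then kept without drug for 7 days, whereas control cells were passaged without HCQ. Wells were combined by position on the plate into left, middle and right pools of 31 wells, so each of the 4 groups held 3 pools from a single plate. By the labels, controls were at passage 19 and HCQ-evolved pools at passage 15, and treatment and passage number cannot be told apart. All p-values below measure the spread between pools of a plate. No pool was sampled under acute drug or heat.

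Chaperones bind proteins that are unfolded or newly made and help them reach or regain their fold. In the cytosol, HSP70 proteins hold short stretches of an unfolded chain in cycles driven by ATP, J-domain proteins such as DNAJB1 bring them clients and start ATP hydrolysis, and HSP110 and BAG proteins release the nucleotide so that the cycle can turn. HSP90 takes over clients that are nearly folded, such as kinases and steroid receptors, and in the mitochondrial matrix HSPD1 (HSP60) forms a chamber that HSPE1 (HSP10) closes as a lid. When unfolded protein builds up, the transcription factor HSF1 forms trimers that bind heat shock elements, arrays of inverted GAA units in the promoters of many of these genes.

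The promoter sequences below show where such arrays were found by their letters. RefSeq promoters (250 bases before to 50 bases after the start, GRCh38.p14) were matched for 9 of the 10 genes (all but HSF1), in 13 windows. An array of 3 inverted units (GAA and TTC in turn, starting with either, with NN between them, on either strand) was found for 2 genes, HSP90AA1 and HSPD1, and it occurs in 0.49% of 35116 promoters. An array of 2 units (GAANNTTC or TTCNNGAA, which every array of 3 also holds) was found for 6 genes, against 13.5% of promoters. These were the 5 genes printed below and HSPB1, whose window is not printed. Both background shares count single promoters, whereas a gene was counted if any of its windows matched, so the figures are not alike. Windows are given 5′ to 3′ on the strand of the gene. Capitals mark arrays of 3 units or, in windows without one, the arrays of 2. In the HSPD1 window they cover 2 overlapping arrays of 3 units. The HSP90AA1 window holds a further array of 2 units in lower case, after the capitals, and the HSPD1 window overlaps an annotated exon.
HSPD1, chr2:197500062-197500090, minus strand: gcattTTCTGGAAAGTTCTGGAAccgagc
HSP90AA1, chr14:102087095-102087157, minus strand: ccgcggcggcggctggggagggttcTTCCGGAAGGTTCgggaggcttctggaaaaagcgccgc
DNAJB1, chr19:14518412-14518499, minus strand: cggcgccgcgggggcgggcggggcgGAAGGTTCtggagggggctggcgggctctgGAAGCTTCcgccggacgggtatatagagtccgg
HSPA1A, chr6:31815412-31815469, plus strand: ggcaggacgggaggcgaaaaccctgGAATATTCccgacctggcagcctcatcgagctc
HSPA1B, chr6:31827608-31827665, plus strand: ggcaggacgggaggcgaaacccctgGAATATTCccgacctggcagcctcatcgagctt
The last pair was printed because the windows of the HSP70 genes match at 56 of 58 positions, as their transcripts largely do (below). The promoters of HSPH1, BAG3 and HSPE1 held neither array in these windows.

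Libraries held 31147822 to 59965861 counts, and 78.9% of counts between 1 and 4 were even, as when both mates of a fragment are counted, so a count is not an independent molecule. Markers did not separate the labels cleanly. In libraries labelled OVCAR3, 7 of 11 colorectal markers were at 1 CPM (counts scaled to the size of the library) or more in every library, with a summed level of 147 to 438 CPM, against 8 of 11 and 414 to 617 CPM in CCL218. Of 9 ovarian markers, 6 were at that level throughout OVCAR3 (60.5 to 104 CPM summed) and 5 throughout CCL218 (68.6 to 152 CPM). SOX17 was at 0 in all libraries. The colorectal markers CDX2, CEACAM5 and MUC2 were higher in every CCL218 library than in any OVCAR3 library. CDX2 was at 21.3 to 72.2 against 0.81 to 13.1 CPM and CEACAM5 at 12.8 to 68.3 against 3.75 to 8.0 CPM. The ovarian marker MSLN was also higher in CCL218, at 46.6 to 129 against 2.23 to 17.5 CPM. The other markers overlapped between the labels, so line names here are labels. Libraries also differed in how levels followed transcript length. The Spearman correlation across 12211 genes, of each gene's departure from its mean with transcript length, ran from -0.505 to 0.556, with 6 libraries below 0 and 6 above 0 and both signs in OVCAR3 controls, OVCAR3 HCQ-evolved, CCL218 controls and CCL218 HCQ-evolved pools. The part of this in the results below is given gene by gene.

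No heat shock gene passed the test in either line. All 10 passed the filter on low counts, and 0 of 10 were called in OVCAR3 at an adjusted p under 0.05 (edgeR quasi-likelihood test, adjusted over all genes tested), where 1.86% of 12204 genes were. In CCL218, 0 of 10 were called against 6.46% of 12241 genes. At an unadjusted p under 0.05 there were 2 of 10 in OVCAR3 (HSP90AA1 and HSPH1) and 2 of 10 in CCL218 (HSPH1 and DNAJB1), shares to be read beside 16.2% and 25.2% of all genes. DESeq2 called 0 in OVCAR3 and 1 in CCL218, beside 9.05% and 17.7% of all genes. Limma voom called 0 in both, beside 2.12% and 6.85%. The median log2 fold change of the 10 genes was -0.12 in OVCAR3 and -0.10 in CCL218, beside 0.02 and -0.02 over all genes tested.

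**Figure D1:**
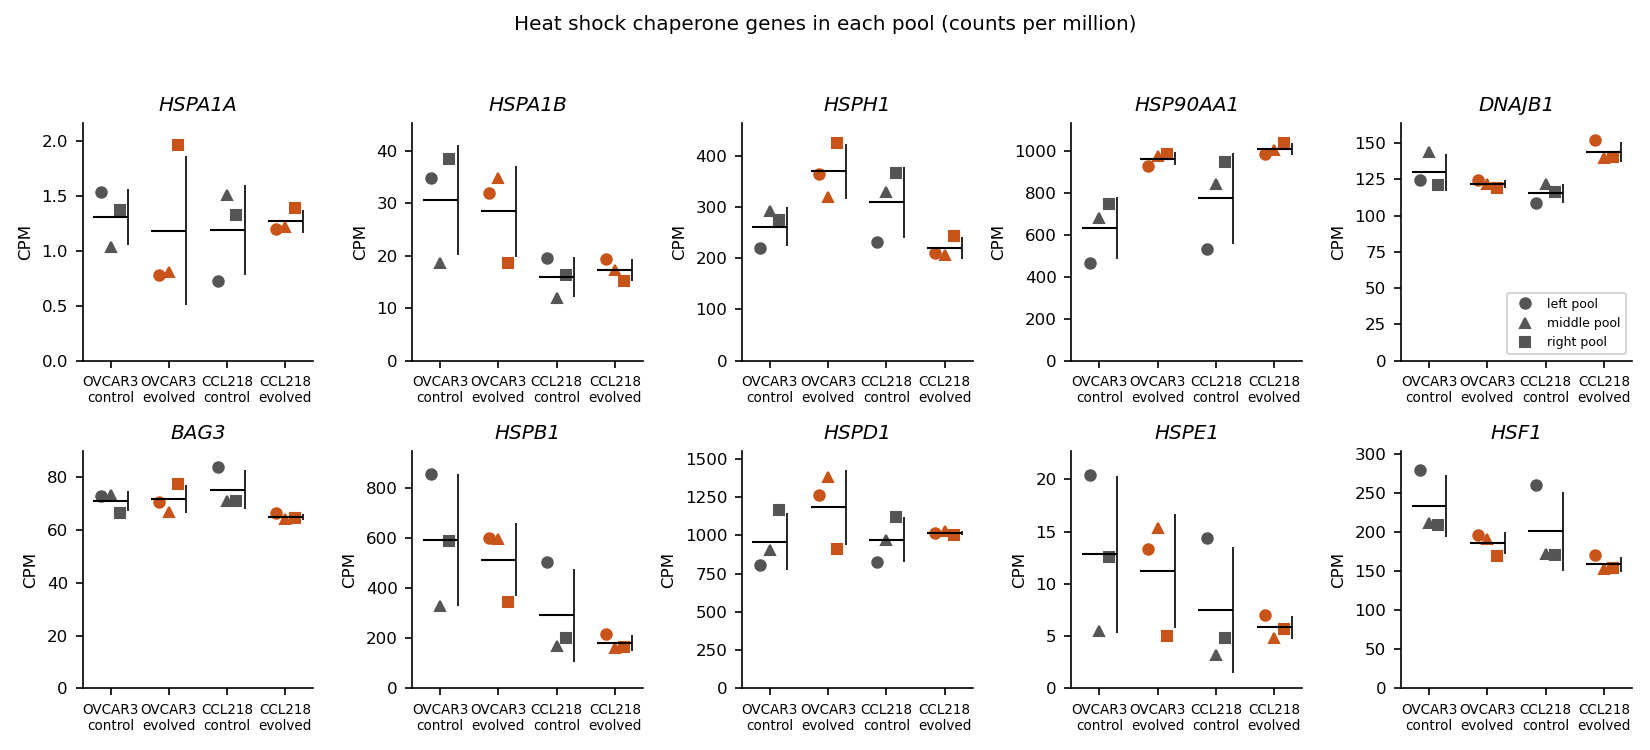
Level of each heat shock gene in every pool in CPM (vertical axis, from 0), for the 4 groups; circles, triangles and squares are left, middle and right pools, horizontal bars are means and vertical lines are 1 SD of 3 pools. HSP90AA1 in HCQ-evolved pools lies above the controls of the same line in OVCAR3 and in CCL218, HSPH1 lies higher in OVCAR3 and lower on average in CCL218, and HSPB1 and HSPE1 spread widely within groups.

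HSP90AA1 encodes the inducible cytosolic HSP90 alpha (chromosome 14, 102080742 to 102139699, minus strand). In OVCAR3 it was at 467, 682 and 749 CPM in the left, middle and right control pools and at 930, 976 and 986 CPM in the HCQ-evolved pools. In CCL218 the controls were at 531, 843 and 948 CPM and the HCQ-evolved pools at 984, 1006 and 1039 CPM. Every HCQ-evolved pool was thus above every control pool of its line, and the evolved pools were far closer together (SD 29.9 and 27.6 CPM) than the controls (SD 147 and 217 CPM). The log2 fold change, HCQ-evolved over control, was 0.59 (standard error, SE, 0.22, 95% interval 0.07 to 1.11, adjusted p = 0.244, edgeR) in OVCAR3 and 0.36 (0.21, -0.13 to 0.85, adjusted p = 0.317) in CCL218, and neither passed. A higher level in a pool and a larger share of cells with that level cannot be told apart in bulk RNA. Across 14 other ways of processing, the OVCAR3 value ran from 0.41 to 0.71 and the adjusted p from 0.0653 to 0.512. In CCL218 it ran from 0.16 to 0.53, the lower value without the left control pool.

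HSPH1 encodes the cytosolic HSP110, the exchange factor that also helps HSP70 to take apart aggregates (chromosome 13, 31134973 to 31162388, minus strand). OVCAR3 controls were at 219, 292 and 274 CPM and HCQ-evolved pools at 365, 319 and 425 CPM, with no overlap. CCL218 controls were at 232, 329 and 366 CPM and HCQ-evolved pools at 209, 206 and 244 CPM. Here the right evolved pool was above the left control pool, so the groups overlapped. The log2 fold change was 0.48 (SE 0.20, adjusted p = 0.289, edgeR) in OVCAR3 and -0.51 (0.18, adjusted p = 0.136) in CCL218. Among the 10 genes it had the smallest p for a difference between the lines. The difference of the changes, CCL218 less OVCAR3, was -0.97 (SE 0.26, 95% interval -1.54 to -0.41, adjusted p = 0.131, edgeR), which did not pass in a comparison where 0.872% of 12613 genes did.

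The call on HSPH1 turned on the processing. In CCL218 it passed once the dependence on transcript length and GC content had been taken out (log2 fold change -0.67, adjusted p = 0.00754, edgeR), and the replicate block for pool position with that correction gave -0.67 (adjusted p = 0.00907, edgeR). It also passed without the left control pool (-0.68, adjusted p = 0.0011, edgeR), over a range of 0.0011 to 0.447 in 14 settings. Over all genes, 19.4% were called in CCL218 with the trend removed, 17.3% with the block as well and 25.2% without that pool. The difference between lines passed in 4 of 19 settings, with an adjusted p of 0.00368 after trend removal, 0.0194 by DESeq2 and 0.0456 without the left CCL218 control pool. Its size stayed between -1.13 and -0.84 in those 19 settings. Over all genes, trend removal called 237 higher and 218 lower for this difference. DESeq2 called 306 and 157, and the fit without the left CCL218 control pool 91 and 20. In OVCAR3, HSPH1 passed in 0 of 14 settings.

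The left control pools also stood apart in some other chaperones, but not in all. HSPA8, the constitutive HSP70, was named here after its values were seen. It was at 560 CPM in the left OVCAR3 control pool against 1277 and 1377 CPM in the middle and right pools, and at 498 CPM in the left CCL218 control pool against 1662 and 1918 CPM. HCQ-evolved pools were at 1351 to 1428 CPM in OVCAR3 and 1541 to 1592 CPM in CCL218. The left control pool also had the lowest HSP90AA1 and HSPH1 and the highest HSF1 and HSPB1 of the control pools in both lines. For DNAJB1, BAG3 and HSPA1B the left OVCAR3 control pool lay between the middle and right pools. Whether the pattern is particular to chaperones was not tested.

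DNAJB1 encodes the J-domain protein most used with inducible HSP70 (chromosome 19, 14514769 to 14560391, minus strand). In CCL218 the controls were at 108, 122 and 116 CPM and the HCQ-evolved pools at 152, 139 and 141 CPM, without overlap. OVCAR3 controls were at 125, 144 and 121 CPM and HCQ-evolved pools at 125, 122 and 119 CPM, which overlapped. The log2 fold change was 0.30 in CCL218 (SE 0.11, 95% interval 0.03 to 0.56, adjusted p = 0.158, edgeR) and -0.12 in OVCAR3 (0.16, adjusted p = 0.774). DESeq2 called the CCL218 change (adjusted p = 0.0425), in a fit that called 17.7% of all genes. Over 14 settings the adjusted p ran from 0.0425 to 0.402, and the log2 fold change moved little, from 0.25 to 0.33. The difference between lines was 0.43 (SE 0.16, adjusted p = 0.374, edgeR) and passed in 0 of 19 settings.

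Together, 3 of 10 genes in OVCAR3 (HSP90AA1, HSPH1 and HSF1) and 3 of 10 in CCL218 (HSP90AA1, DNAJB1 and BAG3) had HCQ-evolved and control pools that did not overlap. Among all genes tested the share was 25.9% in OVCAR3 and 36.1% in CCL218, so these counts were near the background. With 3 pools against 3, an exact permutation test on any single gene cannot go below a two-sided p of 0.1.

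**Figure D2:**
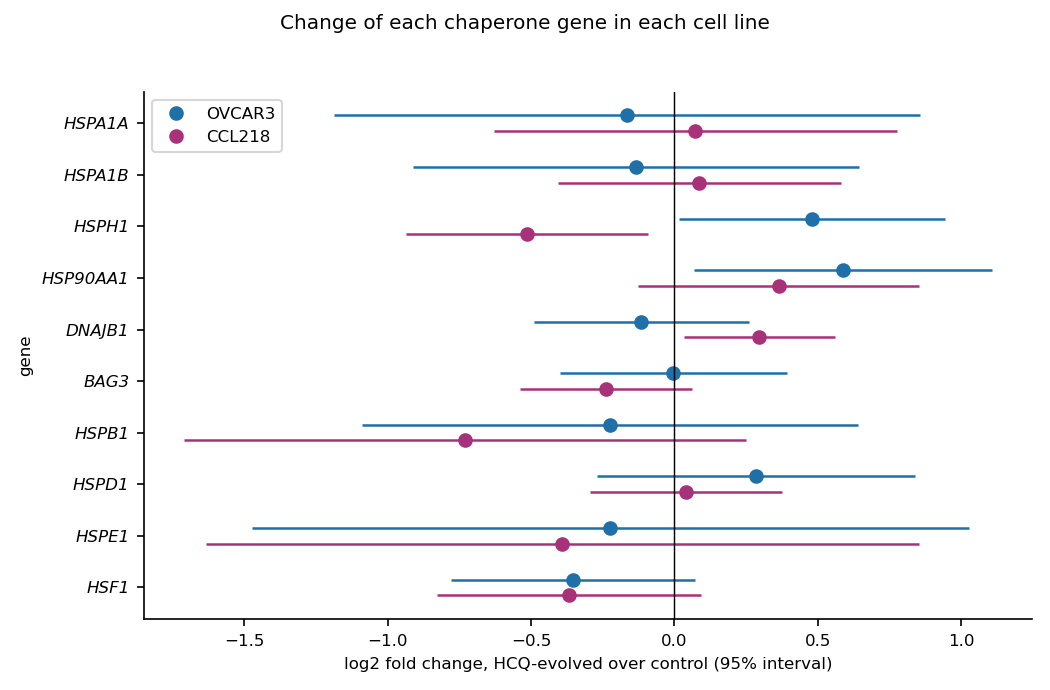
Log2 fold change of each heat shock gene, HCQ-evolved over control, with its 95% interval from edgeR (horizontal axis), in OVCAR3 (blue) and CCL218 (purple). HSPH1 lies on opposite sides of 0 in the lines (0.48 and -0.51), HSP90AA1 lies to the right in both, and the intervals of HSPA1A, HSPB1 and HSPE1 are the widest.

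HSF1, the transcription factor itself (chromosome 8, plus strand), had lower means after HCQ evolution in both lines. OVCAR3 controls were at 280, 212 and 210 CPM and HCQ-evolved pools at 197, 192 and 170 CPM, without overlap. CCL218 controls were at 260, 173 and 170 CPM and HCQ-evolved pools at 170, 153 and 154 CPM, and the left evolved pool (170.5 CPM) lay just above the right control pool (170.3 CPM). The log2 fold change was -0.35 (SE 0.18, adjusted p = 0.396, edgeR) in OVCAR3 and -0.37 (0.20, adjusted p = 0.288) in CCL218. Without the left control pool the values were -0.21 in OVCAR3 and -0.13 in CCL218, and with the length and GC trend removed they were -0.17 and -0.19. HSF1 activity is set mostly by trimer formation and modification of the protein, which these counts do not measure.

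BAG3 encodes a co-chaperone that links HSP70 to selective autophagy of aggregates (chromosome 10, 119651380 to 119677819, plus strand). In OVCAR3 it was at 72.7, 73.3 and 66.5 CPM in controls and 70.6, 66.8 and 77.5 CPM in HCQ-evolved pools. In CCL218 it was at 83.7, 70.8 and 71.1 CPM in controls and at 66.3, 64.0 and 64.5 CPM after evolution, all evolved pools being below the controls. The log2 fold changes were -0.0045 in OVCAR3 (95% interval -0.40 to 0.39, adjusted p = 0.995, edgeR) and -0.24 in CCL218 (-0.54 to 0.06, adjusted p = 0.287). A change in OVCAR3 of the size seen for HSP90AA1 was outside that interval.

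HSPA1A and HSPA1B, the inducible HSP70 genes (chromosome 6, 31815543 to 31817946 and 31827738 to 31830254, plus strand), are near copies, and their separate levels are uncertain. Of 150-base windows of the HSPA1A transcript, 69.6% occur letter for letter in HSPA1B, and 66.1% the other way round. HSPA1A was at 0.72 to 1.96 CPM (30 to 116 counts) over the 12 libraries, with log2 fold changes of -0.17 (SE 0.44, adjusted p = 0.894, edgeR) in OVCAR3 and 0.07 (0.30, adjusted p = 0.895) in CCL218. HSPA1B was at 34.8, 18.6 and 38.4 CPM in OVCAR3 controls and 31.99, 34.7 and 18.6 CPM in HCQ-evolved pools. In CCL218 the controls were at 19.6, 12.01 and 16.2 CPM and the HCQ-evolved pools at 19.4, 17.3 and 15.2 CPM. Groups overlapped in both lines, and the log2 fold change of HSPA1B was -0.13 (SE 0.33, adjusted p = 0.888, edgeR) in OVCAR3 and 0.09 (0.21, adjusted p = 0.817) in CCL218. Of the exon bases of HSPA1B, 36.6% also lie in another annotated gene on the same strand.

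HSPB1, the small heat shock protein HSP27 (chromosome 7, 76302673 to 76304295, plus strand), varied widely within groups. OVCAR3 controls were at 855, 329 and 587 CPM and HCQ-evolved pools at 599.8, 596 and 346 CPM. CCL218 controls were at 505, 169 and 201 CPM and HCQ-evolved pools at 216, 159 and 164 CPM. The highest control pool was 2.60 times the lowest in OVCAR3 and 2.98 times in CCL218. The log2 fold change was -0.23 (SE 0.37, adjusted p = 0.814, edgeR) in OVCAR3 and -0.73 (0.42, adjusted p = 0.314) in CCL218. In CCL218 it shrank to -0.06 without the left control pool and to -0.25 with the length and GC trend removed.

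The mitochondrial pair differed in counts and in their spread, and the HSPE1 counts are uncertain. HSPD1 (chromosome 2, 197486584 to 197516737, minus strand) was at 806, 901 and 1164 CPM in OVCAR3 controls and 1262, 1380 and 910 CPM in HCQ-evolved pools, and at 824, 971 and 1121 CPM and 1015, 1030 and 999.9 CPM in CCL218. Groups overlapped, with changes of 0.28 (95% interval -0.27 to 0.84, adjusted p = 0.612, edgeR) in OVCAR3 and 0.04 (-0.30 to 0.38, adjusted p = 0.88) in CCL218. HSPE1, its neighbour on chromosome 2 (197500140 to 197503449, plus strand), had 20.5, 5.49 and 12.6 CPM in OVCAR3 controls and 13.4, 15.3 and 5.02 CPM in HCQ-evolved pools. In CCL218 it was at 14.4, 3.23 and 4.84 CPM and at 7.04, 4.82 and 5.66 CPM. Its change was -0.22 (SE 0.54, adjusted p = 0.88, edgeR) in OVCAR3 and -0.39 (0.53, adjusted p = 0.668) in CCL218, where the replicate block gave -0.12, trend removal -0.10 and leaving out the left control pool 0.51. Of the HSPE1 transcript, 34.5% lies inside exons of the readthrough gene HSPE1-MOB4 (0 counts throughout), and the effect of this overlap on its counts was not tested. MOB4 itself had 0 to 6 counts per library. The annotation also names 26 HSPE1 pseudogenes and 18 HSPD1 pseudogenes. How many HSPE1 reads were left uncounted was not tested.

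HSPB1, HSPE1 and HSPA1B were higher in the libraries with a negative length trend in both lines. In OVCAR3, HSPB1 was at 587 to 855 CPM in the 4 libraries with a negative trend and 329 to 346 CPM in the 2 with a positive trend. In CCL218 it was at 216 to 505 CPM in 2 libraries against 159 to 201 CPM in 4. HSPE1 was likewise at 12.6 to 20.5 CPM against 5.02 to 5.49 CPM in OVCAR3 and 7.04 to 14.4 CPM against 3.23 to 5.66 CPM in CCL218. HSPA1B was at 31.99 to 38.4 CPM against 18.6 CPM in OVCAR3 and at 19.4 to 19.6 CPM against 12.01 to 17.3 CPM in CCL218. By this split 4 of 10 genes were apart in OVCAR3 (BAG3 being the other) and 4 of 10 in CCL218 (HSPA1A being the other), beside 46.5% and 28.4% of all genes, and 3 of 10 were apart in both lines, beside 20.7%. These counts were near the background and are no result about the group. Their transcripts have 777, 557 and 2517 bases, and the part of the trend in their levels was not tested beyond the values with it removed. HSPH1, HSP90AA1, HSPD1, DNAJB1 and HSF1 overlapped between the library sets in both lines.

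**Figure D3:**
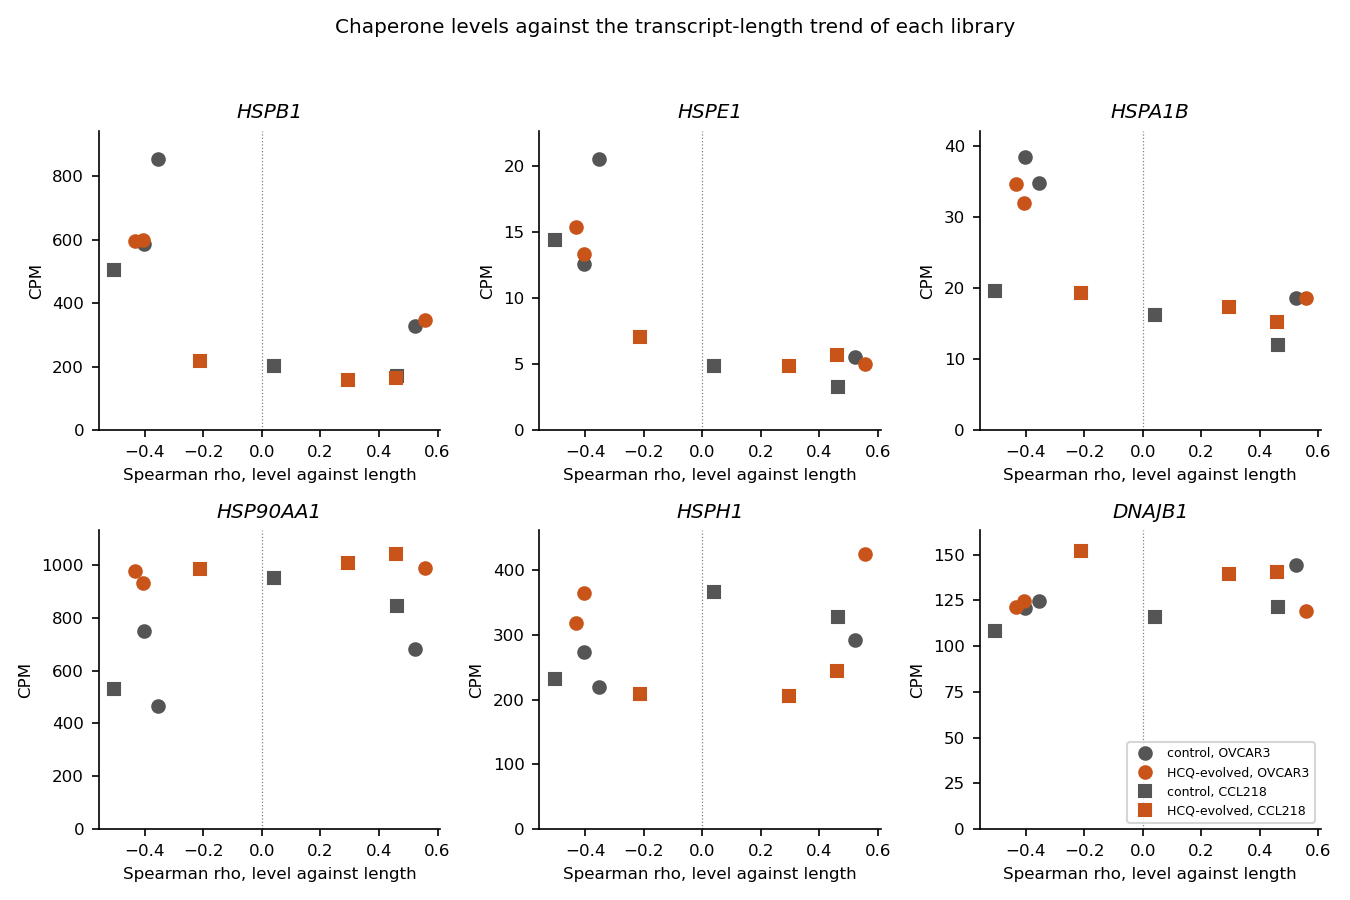
Level of 6 heat shock genes in CPM (vertical axis) against the length trend of each library (Spearman rho of level with transcript length across genes, horizontal axis); circles are OVCAR3 and squares CCL218, grey control and orange HCQ-evolved. HSPB1, HSPE1 and HSPA1B are higher at negative rho, whereas HSP90AA1 separates grey from orange within each line.

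Levels between the genes can be compared only per length. In OVCAR3 control pools, CPM per kilobase of transcript was 759.6 ± 339 for HSPB1, 426 ± 82.5 for HSPD1, 196 ± 45.5 for HSP90AA1 and 109.6 ± 18.8 for HSF1 (mean ± SD, n = 3). DNAJB1 followed at 57.9 ± 5.599, HSPH1 at 49.9 ± 7.21, BAG3 at 27.7 ± 1.48, HSPE1 at 23.1 ± 13.5, HSPA1B at 12.2 ± 4.19 and HSPA1A at 0.546 ± 0.106. HSPB1 and HSPD1 overlapped within their spread, as did DNAJB1 with HSPH1 and BAG3 with HSPE1. The counts of HSPE1, HSPA1A and HSPA1B are uncertain as given above, and so are their places in this order. In CCL218 controls HSPD1 (433 ± 66.2) was the higher of the first pair, and HSPB1 was at 375 ± 238. The summed CPM of the 10 genes came to 0.258% to 0.370% of the library size after TMM scaling, which is not the share of raw counts. Control pools covered 0.258% to 0.322% and HCQ-evolved pools 0.278% to 0.370%.

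Control CCL218 pools were also compared with control OVCAR3 pools. No gene of the 10 was called, against 3.42% of 12613 genes, and 2 of 10 (14.5% of all genes) had an unadjusted p under 0.05, HSPA1B and HSPB1. DESeq2 called 1 gene of the 10 and limma voom 0. Over all 12613 genes DESeq2 called 374 higher and 551 lower, and limma voom 178 and 274. HSPA1B was lower in CCL218 by a log2 difference of -0.96 (SE 0.31, adjusted p = 0.146, edgeR), with a range of -1.23 to -0.78 over 19 settings, of which 2 passed: DESeq2 (adjusted p = 0.0372) and leaving out the middle OVCAR3 control pool (0.0409). HSPB1 differed by -1.04 (0.45, adjusted p = 0.315, edgeR) and passed after trend removal (-0.54, adjusted p = 0.0323) and without the left CCL218 control pool (-1.71, adjusted p = 0.0323). The other 8 ranged from -0.80 (HSPE1) to 0.28 (HSP90AA1). Between the HCQ effects of the lines, 0 of 10 genes were called and 2 of 10, HSPH1 and DNAJB1, had an unadjusted p under 0.05, against 9.11% of all genes.

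**Figure D4:**
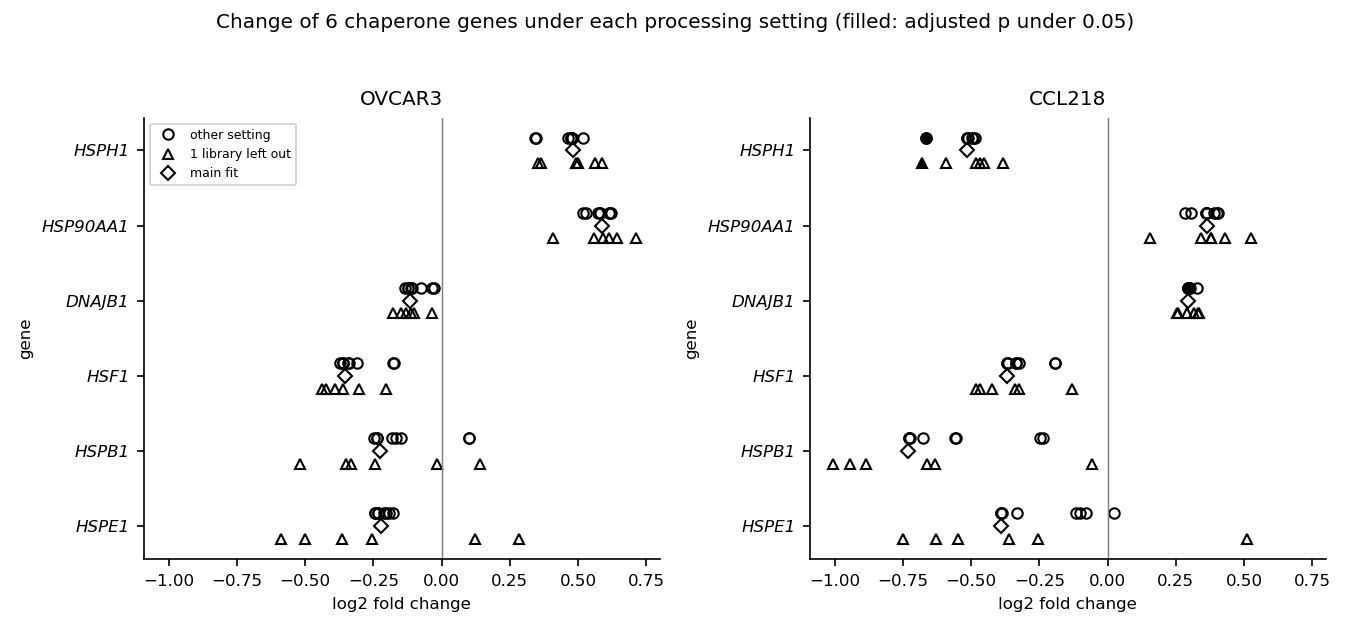
Log2 fold change (horizontal axis) of 6 heat shock genes in OVCAR3 and CCL218 in the main fit (diamonds), in other settings (circles) and with 1 library left out (triangles); filled symbols have an adjusted p under 0.05. HSPH1 in CCL218 is filled in 3 settings and DNAJB1 in 1, HSP90AA1 stays above 0 throughout, and HSPB1 and HSPE1 cross or approach 0.

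Chaperone genes beyond these 10 were summarised as 10 lists of 119 genes, chosen as was the group above with earlier results in view. In OVCAR3, 0 of 102 tested genes passed, and 5 had an unadjusted p under 0.05 (4.9%), beside 1.86% and 16.2% of all genes. DESeq2 called 2 (1.96%, beside 9.05% of all genes) and limma voom 0. In CCL218, 4 of 103 passed (3.88%, beside 6.46% of all genes). BAG1, a nucleotide exchange factor for HSP70, fell from 130.0, 103 and 120.1 CPM to 82.7, 74.7 and 71.5 CPM, by 0.65 on the log2 scale (SE 0.14, adjusted p = 0.0397, edgeR). HSPA2, a testis-enriched HSP70, fell from 9.01, 6.42 and 5.16 CPM to 2.77, 2.75 and 2.74 CPM, by 1.34 on the log2 scale (adjusted p = 0.0233, edgeR). CHORDC1, an HSP90 co-chaperone, fell from 47.4, 37.5 and 44.9 CPM to 27.4, 27.2 and 30.7 CPM (-0.63, adjusted p = 0.0477, edgeR). DNAJA4, a J-domain protein, rose from 30.8, 38.6 and 38.9 CPM to 52.6, 60.0 and 55.2 CPM (0.61, adjusted p = 0.0441, edgeR). Control and HCQ-evolved pools were apart for all 4.

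Calls in the lists followed the number of calls over all genes. With the left, middle or right HCQ-evolved CCL218 pool left out, 0 list genes passed and calls over all genes fell from 791 to 147, 102 and 143. The log2 fold changes stayed close, at -1.35 to -1.33 for HSPA2, -0.71 to -0.60 for BAG1, -0.69 to -0.59 for CHORDC1 and 0.57 to 0.65 for DNAJA4. Without the left control pool 23 list genes passed (22.3%, beside 25.2% of all genes), without the middle control pool 2 (1.94%, beside 3.65%) and without the right control pool 1 (0.971%, beside 1.2%). With the replicate block for pool position, by which CCL218 pools were taken as paired, 8 passed (7.77%, beside 14.2% of all genes).

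By role, cytosolic HSP70 and HSP110 genes had 0 of 6 tested called in OVCAR3 and 1 of 6 in CCL218 (median log2 fold change 0.20 and -0.13). HSP90 and its co-chaperones had 0 of 19 and 1 of 19 (0.13 and -0.24), and cytosolic J-domain proteins 0 of 15 and 1 of 16 (0.02 and -0.08). The BAG family had 0 of 4 and 1 of 4. Heat shock factors and their regulators (0 of 7 in both), mitochondrial chaperones and proteases (0 of 15 in both), the CCT chaperonin with prefoldin (0 of 13 in both) and endoplasmic reticulum chaperones (0 of 16 in both) had no call. Of other heat-inducible HSF1 targets, 0 of 20 were called in OVCAR3 and 1 of 20, CHORDC1, in CCL218. In each list the gene with the smallest p in a line is named next.

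In OVCAR3 these were HSPA4L, an HSP110 (0.40), CDC37, which brings kinases to HSP90 (-0.58), DNAJB14 (0.46), HSPB11 (0.36), BAG1 (-0.50), RPA1, from the list of HSF1 regulators (0.65), DNLZ, a partner of the mitochondrial HSP70 (-0.86), VBP1, a prefoldin subunit (0.47), PTGES3, the HSP90 co-chaperone p23 (0.56), and PDIA4, a protein disulfide isomerase (0.54), all as log2 fold changes with adjusted p-values from 0.162 to 0.647 (edgeR). In CCL218 those not yet named were HDAC6 (0.27), HSPB11 (-0.11), DNLZ (-0.99), CCT3 (-0.29) and HSP90B1, the HSP90 of the endoplasmic reticulum (0.32), with adjusted p-values from 0.108 to 0.813. DNLZ in CCL218 passed in 6 of 14 settings, among them the replicate block (-0.93, adjusted p = 0.0084, edgeR). With the length and GC trend removed, OVCAR3 values were 0.13 for DNAJB14 and 0.25 for HSPA4L. Only 1 of the 9 genes listed by symbol as small heat shock proteins outside the group, HSPB11, could be tested. Its values do not speak for that class.

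**Figure D5:**
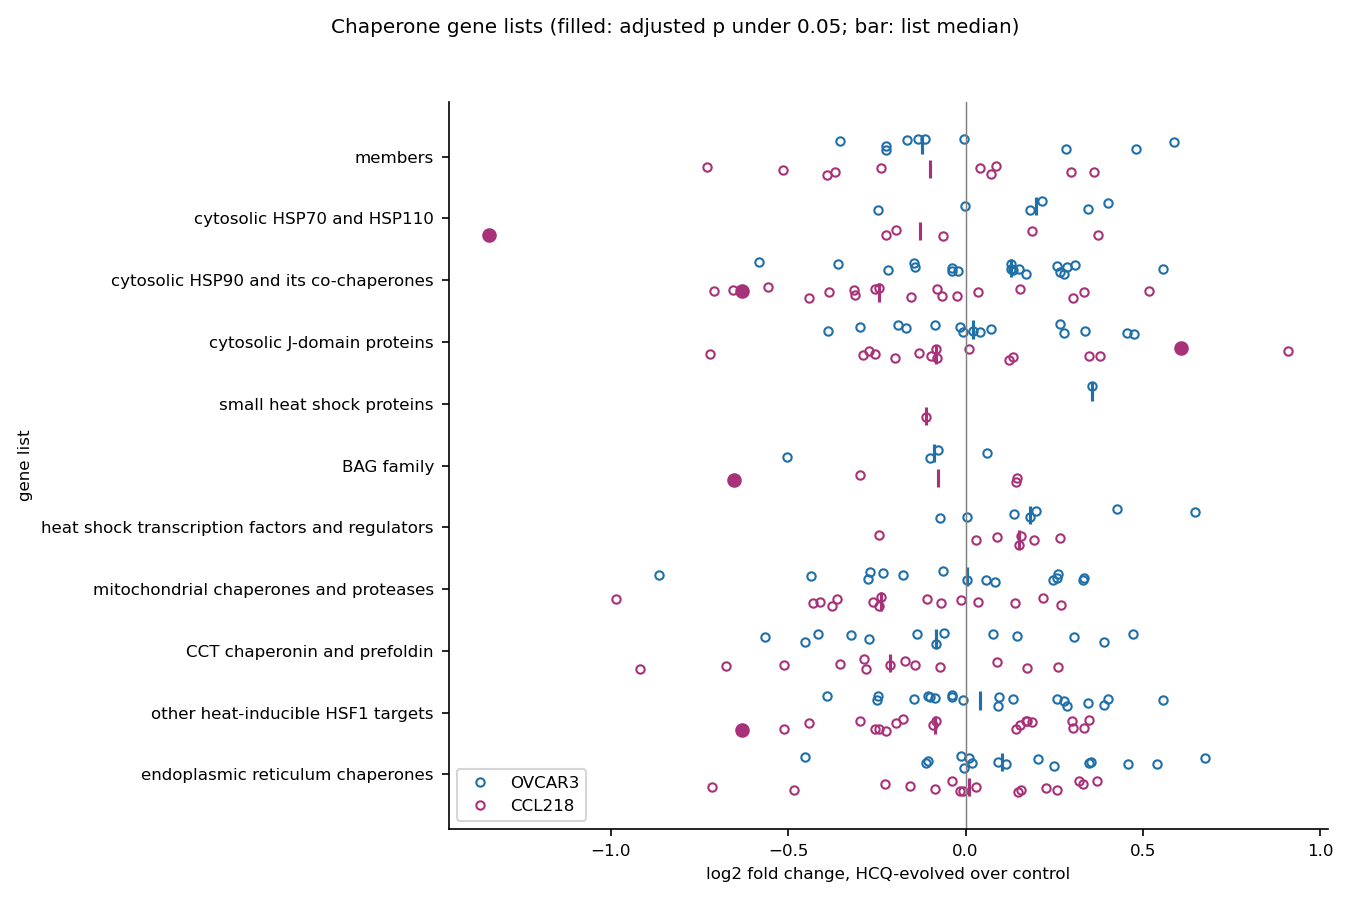
Log2 fold change, HCQ-evolved over control (horizontal axis), of every tested gene of the 10 heat shock genes (top row) and of 10 chaperone lists; blue is OVCAR3, purple CCL218, short bars are list medians and filled points have an adjusted p under 0.05. The filled points are HSPA2, BAG1, CHORDC1 (on 2 lists) and DNAJA4, all in CCL218.

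The genes most like each heat shock gene over the 12 libraries were found by Pearson r of log2 CPM, with no test. HSPB1 (777 bases) was followed by SNCG (r = 0.996), ARL2 (0.995) and CST3 (0.992), whose transcripts have 756, 932 and 793 bases. HSPE1 (557 bases) was most like RABGGTA (0.99), ACTB (0.989) and OGFR (0.989), with longer transcripts of 1946, 1812 and 2410 bases. HSPA1B (2517 bases) was most like TMEM205 (0.972), RAB25 (0.968) and PSMB1 (0.962), with shorter ones of 1256, 1100 and 891 bases. HSP90AA1 was most like USP1 (0.988), VPS26A (0.987) and ABCB10 (0.984), HSPD1 like DPM1 (0.974), EOLA2 (0.967) and PPID (0.964), and HSF1 like MTA1 (0.99), PCBP4 (0.985) and RNF126 (0.985). HSPH1 was most like SLC4A2 (0.945) and SKP2 (0.943), DNAJB1 like ICAM1 (0.906), GPR35 (0.866) and PLD1 (0.864), and BAG3 like GIGYF1 (0.95), NUMA1 (0.93) and PNN (0.915). HSPA1A, at about 1 CPM, reached 0.879 with KANTR, 0.814 with TOR1AIP2 and 0.799 with HSD17B4. Within the group the highest r was 0.904 (HSPB1 with HSPE1) and the lowest -0.941 (HSP90AA1 with HSF1). The 12 libraries differ in the length trend given above, and its part in these correlations was not tested.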

How the data were processed

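The authors aligned paired-end RNA-seq reads (polyA selected) to hg38 with STAR, removed duplicates and deposited counts per gene from featureCounts, with versions not given in the sources used here. All 12 libraries mapped to a group by their labels, with 0 columns unmapped. The members and lists were chosen with earlier results of these data known. CPM were scaled by TMM over the 12 libraries. Each line was fitted alone in edgeR 4.0.16 (R 4.3.3) by quasi-likelihood F tests, keeping genes that reached 1 CPM in 3 or more libraries, with Benjamini-Hochberg adjustment over all genes tested and a threshold of 0.05. The difference between lines and the difference between controls were taken from a fit of all 12 libraries. Alternatives were DESeq2 1.42.0, limma 3.58.1 voom, another normalization, no filter, a shared fit, a block for pool position, removal of the trend with length and GC content (spline, 5 df) and leaving out each library. Transcripts and coordinates came from GENCODE 44, with 25763 of 28278 symbols matched (91.1%), and promoters from RefSeq. The pipeline was run on simulated counts that held no length trend and no pool effects, with changes larger than those of the members. That run does not show which changes could be found in these libraries.

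Control and HCQ-evolved plates had the same pool positions (left, middle, right). After group means were removed, same-position pools correlated at 0.541, 0.27 and 0.227 in CCL218 and at 0.422, -0.692 and -0.5 in OVCAR3. The middle control pool and right evolved pool correlated at 0.471 in CCL218 and 0.714 in OVCAR3, so position does not clearly identify pairs. The main fit held no block in either line, so its values ignore any pairing by position. The block is given as an alternative setting and was fitted in both lines. With it 14.2% of all genes were called in CCL218, against 6.46% in the main fit, and 0.664% against 1.86% in OVCAR3. Named genes were all 10 members, list genes called in a line (at most 6 per list and line), the gene with the smallest p in each list and line, and the 3 genes most like each member, of which 1 is not reported here. p-values measure the spread between pools of 1 plate.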

Additional observations from a re-analysis of the deposited data

How the results depend on the processing

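The counts of heat shock genes called stayed at 0 of 10 in OVCAR3 in 14 settings. In CCL218, 1 of 10 was called by DESeq2 (DNAJB1), beside 17.7% of all genes. With the length and GC trend removed 1 was called (HSPH1), beside 19.4%, and the same gene with the replicate block and that correction together, beside 17.3%. With a library left out, 0 to 1 were called. The same 3 settings called 1 of 10, HSPH1, in the difference between lines (0 to 1 with a library left out). Over all 12613 genes they called 306 higher and 157 lower, 237 and 218, and 104 and 40, in that order. Between control lines DESeq2 called 1 (HSPA1B) and trend removal 1 (HSPB1), with 0 to 1 when a library was left out. Over all 12613 genes DESeq2 called 374 higher and 551 lower there, and trend removal 297 and 441. The replicate block alone called 0 of 10 in each comparison. List genes called in OVCAR3 went from 0 to 2 by DESeq2, 1 in a fit of all 12 libraries and 3 with the trend removed, where 9.05%, 9.24% and 8.7% of all genes were called. In CCL218 they went from 4 to 14 by DESeq2, 8 with the replicate block, 15 with the trend removed, 14 with both, and 0 to 23 with a library left out. Over all genes the shares called were 17.7%, 14.2%, 19.4% and 17.3% in the first 4 of these, against 13.6%, 7.77%, 14.6% and 13.6% of the list genes. The members' median log2 fold change in OVCAR3 was 0.054 with the trend removed and 0.037 with the replicate block as well (-0.17 to 0.077 with a library left out). In CCL218 it was -0.015 by limma voom, -0.034 with the replicate block, 0.012 with block and trend removal, and -0.18 to -0.059 with a library left out.

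Signs turned for some changes, none of them called, and the widest turn was HSPE1 in CCL218, from -0.39 to 0.51 without the left control pool. With the trend removed, OVCAR3 values were 0.013 for HSPA1A, 0.10 for HSPB1 and 0.094 for BAG3, and HSPD1 in CCL218 was -0.007. With the replicate block as well they were 0.10 for HSPB1 and 0.086 for BAG3 in OVCAR3 and 0.023 for HSPE1 in CCL218. BAG3 in OVCAR3 was 0.036 without the filter. With a library left out, OVCAR3 values ran from -0.77 to 0.064 (HSPA1A), -0.39 to 0.089 (HSPA1B), -0.52 to 0.14 (HSPB1), -0.59 to 0.28 (HSPE1) and -0.078 to 0.055 (BAG3). CCL218 values ran from -0.18 to 0.28 (HSPA1A), -0.081 to 0.27 (HSPA1B), -0.062 to 0.15 (HSPD1), -0.75 to 0.51 (HSPE1) and -0.29 to 0.24 (HSPB11). HSPA1A had the fewest counts of the group, at 30 to 116 per library, and 69.6% of its 150-base windows also occur in HSPA1B.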
